A study of Mus musculus with 3 samples.

Results

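The serpins are the genes whose symbol begins with Serpin in the deposited expression tables of mouse liver. There were 63 such rows among 23361 genes, and all 63 had the status OK in all 3 libraries. An FPKM (fragments per unit of transcript length and of mapped fragments, a level per length) of at least 1 in at least 1 library was reached by 30 serpins, and these 30 were compared by clade letter. The minimum was reached in all 3 libraries by 25 of them, and in IR only by 2, Serpina3c and Serpine2. Of the 33 others, 19 were at 0 in all 3 libraries and 14 had a value above 0 in at least 1 library. The members nearest to the minimum were Serpina3i, at most 0.371 FPKM, and Serpina3h, at most 0.576, below it, and Serpina3c, at most 1.44, and Serpinb8, at most 1.67, above it.

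Most serpins are protease inhibitors that offer a flexible reactive loop, near the carboxyl end of the protein, as bait to a protease. When the protease cuts the loop, the serpin changes shape and traps it in a covalent complex. Some members have lost this function and carry hormones or act as chaperones. The liver makes most serpins of the blood plasma, among them inhibitors of neutrophil proteases, of clotting and of fibrinolysis, and several are acute phase proteins. The mouse has extra copies of the human SERPINA1 and SERPINA3 genes, which are very much alike and differ most in the reactive loop.

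Each condition was 1 library of liver RNA from mice labelled as male C57BL/6J, aged 8 to 10 weeks. The sham mice had a laparotomy and no vascular clamp. The WI (warm ischemia) mice had the vessels to the left and median lobes clamped for 90 min, and the IR (ischemia followed by reperfusion) mice had 90 min of clamping and then 2 h of restored flow. All mice had the surgery under chloral hydrate, and livers of the sham group were collected 90 min after laparotomy, so no sham library matched the IR library in time. How many mice went into a library is not given in the sources used here. With 1 library a condition there was no replicate, no test and no p-value, and a difference below compares libraries. A serpin is said to have risen or fallen where FPKM + 1 differed at least 2-fold between libraries. The deposited bounds are those of the authors' Cuffdiff model at the 95% level. With 1 library a condition they cannot measure the variation between mice of that condition, and whether they overlap is given as a description. In bulk liver, fewer cells of a type and less RNA per cell cannot be told apart.

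The libraries did not all match the label male. Xist, which is transcribed from the inactive X chromosome of females, was at 18.9 FPKM in sham, 20.1 in WI and 1.29 in IR. The Y-linked genes Ddx3y, Eif2s3y, Kdm5d and Uty were at or near 0 in sham and WI and at 8.58, 13.2, 0.669 and 1.28 FPKM in IR. Of 23 listed genes known to be higher in male liver, 3 had a status other than OK in a library. Of the other 20, 16 rose in IR against WI and 16 in IR against sham, where 5.74% and 5.34% of all genes rose. Mup2 fell in both (1.35% and 2.08% of all genes). Among those that rose, Cyp4a12a, Cyp4a12b, Hsd3b5 and Susd4 reached the minimum in IR only and so had to be higher there. Of 19 genes known to be higher in female liver, 5 fell in WI against sham, 5 in IR against WI and 10 in IR against sham, where 1.09%, 1.35% and 2.08% of all genes fell. For Xist and the Y-linked genes, sham and WI thus shared a pattern that went against their label, and a difference of IR from either of them cannot be told apart from a difference of sex. Every IR value below carries this limit, and leaving out the IR library would leave WI against sham as the only comparison. Of 8 hepatocyte markers, 7 were above the minimum and Alb was listed at 0 in all 3 libraries with the status HIDATA, which marks a locus with too many fragments to process. Neutrophil markers summed to 25.9 FPKM in sham, 19.6 in WI and 462 in IR. All 6 measured above the minimum had risen in IR against WI and against sham (5.74% and 5.34% of all genes). Of these, Cxcr2 and Ngp reached the minimum in IR only and so had to be higher there. The listed Mpo, Elane and Camp stayed below the minimum. Kupffer cell and macrophage markers summed to 497, 254 and 165 FPKM. Of these 8 markers, 2 were higher in IR than in WI (52.5% of all genes), Cd68 at 18.5, 12.3 and 18.5 FPKM and Marco at 20.9, 12.6 and 25.3. The part of these cells in any serpin value was not tested. The summed FPKM of all genes was 475754 in sham, 487912 in WI and 712423 in IR. The status HIDATA was given to 1 gene in sham, 1 in WI and 7 in IR, and Alb entered each sum as 0. Shares of these sums, and values rescaled by them, carry this limit.

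The Serpina1 copies are shown first, because the largest serpin difference was in 1 of them and because reads of the copies can be confused. In the reference transcripts of mouse, named as in GENCODE, the coding sequences of Serpina1a to Serpina1e were all 1242 bases long, and 86 positions (6.92%) were not alike in all 5. The stretch of 90 bases with the most such positions ran from coding base 1103 to 1192, toward the end that encodes the reactive loop, and held 20 of them against a median of 5 over all stretches of that length. Capitals mark the positions that are not alike in all 5 copies.
Serpina1a: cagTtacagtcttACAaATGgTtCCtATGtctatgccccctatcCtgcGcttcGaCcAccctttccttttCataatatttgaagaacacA
Serpina1b: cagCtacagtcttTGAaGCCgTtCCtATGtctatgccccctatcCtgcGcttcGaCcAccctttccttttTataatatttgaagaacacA
Serpina1c: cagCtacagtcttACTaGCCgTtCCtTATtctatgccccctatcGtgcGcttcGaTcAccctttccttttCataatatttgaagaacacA
Serpina1d: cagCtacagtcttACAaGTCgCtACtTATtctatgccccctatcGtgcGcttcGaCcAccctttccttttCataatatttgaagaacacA
Serpina1e: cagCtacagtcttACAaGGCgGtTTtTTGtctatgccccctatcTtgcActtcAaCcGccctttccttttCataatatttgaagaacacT
A base of its own was found at 17 of the 1242 coding positions in Serpina1e, 16 in Serpina1b, 15 in Serpina1d, 7 in Serpina1c and 6 in Serpina1a. Pairs of copies were 96.3% to 98.7% identical in coding sequence, and Serpina1a and Serpina1c were the closest pair. Of all runs of 50 bases in the transcripts, 59.9% in Serpina1a, 45.0% in Serpina1b, 73.3% in Serpina1c, 48.0% in Serpina1d and 34.7% in Serpina1e also occurred in another gene. A fragment from such a run does not name its copy, so the levels of single Serpina1 copies are uncertain and their sum is given beside them. The 6 compared Serpina3 copies were less alike, at 83.6% to 92.5% identity, and the share of runs of 50 bases found in another gene was 17.1% in Serpina3k, 19.1% in Serpina3m and 6.75% in Serpina3n.

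The promoters of the Serpina1 copies were alike as well. In the RefSeq windows of 250 bases before to 50 bases after the start (build GRCm38.p6), which were found for 22 of the 30 compared serpins, the 5 Serpina1 windows were 91.7% to 98.4% identical over aligned bases. Serpina10, Serpina3k, Serpina3m, Serpina4-ps1, Serpina6, Serpinb1a and Serping1 were among those for which no window was used. The Serpina1 windows shared a run of 59 bases without a difference, which lies on the minus strand at chr12:103956956-103957014 in Serpina1e. It is shown because Serpina1e, which differed from the other copies in level, holds it too.
Serpina1 shared run: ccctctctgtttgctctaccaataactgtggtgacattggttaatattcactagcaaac
The run began at position -117 from the start in Serpina1e and between positions -66 and -55 in the other copies. The AP-1 pattern TGANTCA was found in the windows of Serpina1a, Serpina1b, Serpina1c and Serpina1d and not in that of Serpina1e, and 7.81% of all 32851 windows hold it. Because the run lies farther from the start in Serpina1e, its window covers less sequence upstream of the run. A match of Serpina1e beyond its window would be missed. The C/EBP pattern TTGCNNAA was found in 8 of the 22 serpins, among them Serpina1a, Serpina1b, Serpina1d and Serpina1e. Some serpins have more than 1 window, and by windows it was in 10 of 26 of the serpins and in 10.8% of all. Patterns were searched on both strands, and a match is a description of letters and not a binding site.

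Serpina3n, the Serpina3 copy known as an acute phase gene of mouse liver and brain, has its promoter window on the plus strand at chr12:104406458-104406757. It is shown because Serpina3n rose in IR, and the capitals mark its match to the NF-kB pattern (GGG, any 3 bases, then TTCC), at positions -171 to -162 from the start.
Serpina3n: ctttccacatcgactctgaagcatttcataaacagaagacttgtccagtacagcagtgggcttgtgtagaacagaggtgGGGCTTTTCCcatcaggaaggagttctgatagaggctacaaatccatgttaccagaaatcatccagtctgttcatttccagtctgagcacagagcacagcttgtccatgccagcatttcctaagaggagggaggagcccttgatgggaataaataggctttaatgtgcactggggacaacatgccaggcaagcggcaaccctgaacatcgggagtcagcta
This pattern was in 5.56% of all windows and in those of Serpina12, Serpina3g and Serpina3n among the serpins. The STAT3 pattern TTCNNNGAA (8.30% of all windows) was in Serpina11, Serpina3f, Serpina3g and Serpinb6a, and the heat shock factor pattern GAANNTTC (7.86%) in Serpina3c alone among the serpins. The hypoxia pattern ACGTG (19.6%) was in Serpind1, Serpinf1 and Serpinh1, and the E-box CACGTG (7.15%), which contains it, was in none of the 22.

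Over the 30 compared serpins, few serpins differed past 2-fold between WI and sham and more did between IR and either of them. In WI against sham, 14 serpins were higher and 16 lower, where 52.6% of all genes tested were higher. Serpina6 rose, Serpina1e, Serpina3k and Serpina4-ps1 fell, and the background was 0.743% of genes risen and 1.09% fallen. In IR against WI, 26 serpins were higher and 4 lower (52.5% of all genes higher), 9 rose (5.74% of all genes) and 1 fell (1.35%). In IR against sham, 26 were higher and 4 lower (54.4% of all genes higher), 8 rose (5.34%) and 0 fell (2.08%). The median log2 difference of the 30 serpins was -0.03 in WI against sham, 0.76 in IR against WI and 0.62 in IR against sham, beside 0.02, 0.03 and 0.05 for all genes. A fold of at least 2 together with bounds that did not overlap was met by 2 serpins in WI against sham (0.622% of all genes), 5 in IR against WI (3.42%) and 4 in IR against sham (3.56%). Serpina3c and Serpine2 reached the minimum in IR only and so had to be higher there. They are counted among the serpins higher, risen and with bounds apart in both IR comparisons. Rescaling each library to a common sum (TPM) moved the median of all genes to -0.45 in IR against WI and -0.46 in IR against sham, and left 18 of 30 serpins higher in IR in each, with serpin medians of 0.29 and 0.05. The comparisons share libraries, so they are not independent of each other.

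**Figure D1:**
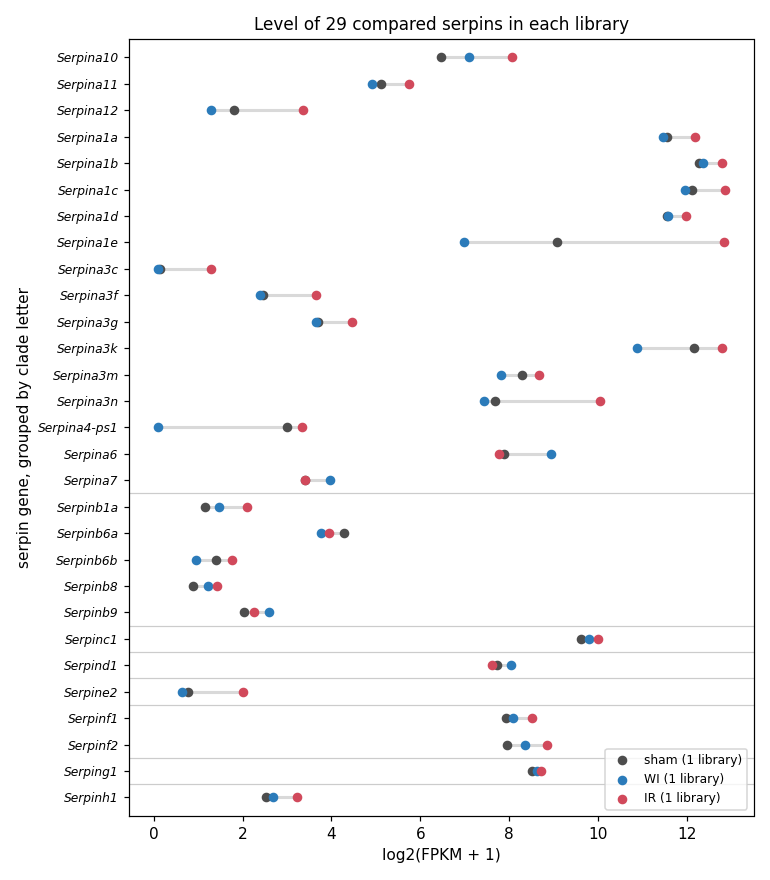
Level of 29 compared serpins, as log2(FPKM + 1), in the sham, WI and IR libraries, with genes grouped by clade letter from A at the top to H at the bottom. Each point is 1 library, and the widest gaps are those of Serpina1e and Serpina4-ps1.

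By the direction of the 2 steps, sham to WI and WI to IR, 16 serpins were lower and then higher, 10 were higher at both steps and 4 were higher and then lower. The 4 were Serpina6, Serpina7, Serpinb9 and Serpind1. No serpin was lower at both steps. These counts depend on the scale: after rescaling to TPM, 15 were lower and then higher, 3 were higher at both steps, 10 were higher and then lower and 2 were lower at both. All differences past 2-fold were in clades A and E. Of 17 compared clade A genes, 7 rose (5.74% of all genes) and 1 fell (1.35%) in IR against WI. None of the 5 clade B genes, nor the single genes of clades C, D, G and H, nor the 2 of clade F passed 2-fold in any comparison with the pseudocount of 1. With 0.1, the clade B genes Serpinb6b in IR against WI (1.25) and Serpinb1a in IR against sham (1.34) passed.

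**Figure D2:**
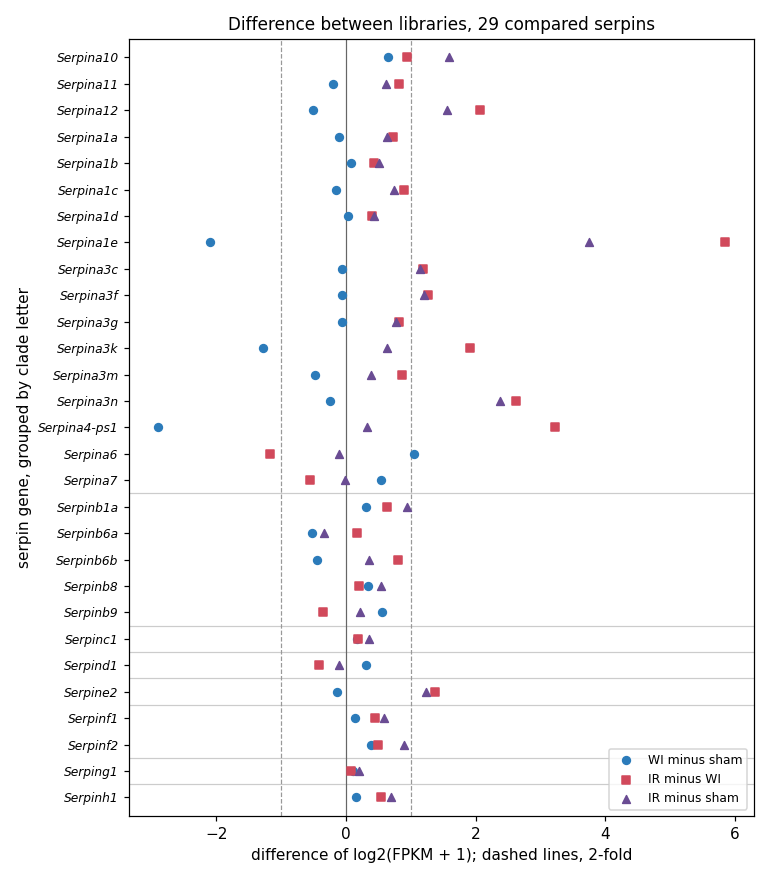
Difference of log2(FPKM + 1) of 29 compared serpins in WI minus sham (circles), IR minus WI (squares) and IR minus sham (triangles), with 1 library a condition and dashed lines at 2-fold. Most squares lie right of 0, and Serpina1e has the largest value, 5.85.

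The Serpina1 copies encode alpha-1-antitrypsin, the main plasma inhibitor of neutrophil elastase. Together they held 15896 FPKM in sham, 15153 in WI and 30352 in IR. This was 3.34%, 3.11% and 4.26% of the summed FPKM of all genes, in which Alb counts as 0. The sum was 0.953 times the sham value in WI and 2.0 times the WI value in IR, and the second ratio lay on the 2-fold threshold (log2 difference 0.46 after rescaling to TPM). Serpina1b was at 4958 FPKM in sham, 5212 in WI and 7031 in IR, Serpina1c at 4413, 3967 and 7414, Serpina1a at 2997, 2797 and 4638, and Serpina1d at 2990, 3053 and 4028. None of these 4 copies passed 2-fold in a comparison, and their bounds overlapped throughout, with a lower bound of 0 in at least 1 library for each. Serpina1b and Serpina1d were higher in IR in FPKM but lower in IR after rescaling to TPM, by 0.11 and 0.15 on the log2 scale against WI.

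Serpina1e stood apart from the other copies. It was at 538 FPKM (bounds 199 to 877) in sham, 124 (61.7 to 187) in WI and 7242 (0 to 16279) in IR. WI was thus lower than sham with bounds apart (log2 difference -2.10). These libraries share the Xist and Y pattern, but of 19 genes higher in female liver 5 fell between them (1.09% of all genes) and 0 rose. Whether the Serpina1e difference goes with these genes was not tested. IR was 58.2 times the WI value and 13.5 times the sham value (log2 differences 5.85 and 3.75), the largest log2 differences of any serpin on the FPKM + 1 scale, while the IR bounds reached 0 and overlapped both others. With a pseudocount of 0.01, Serpina4-ps1 had the largest one in IR against WI (6.74). Serpina1e made up 3.39% of the Serpina1 sum in sham, 0.821% in WI and 23.9% in IR. Of the 15199 FPKM by which the sum was higher in IR than in WI, 46.8% was in Serpina1e, and without it the sums were 15358, 15029 and 23110, an IR to WI ratio of 1.54. Serpina1f was at 0 in all 3 libraries.

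The Serpina3 copies descend from the gene for alpha-1-antichymotrypsin, an acute phase inhibitor of cathepsin G and chymase in humans. Their sum was 5111 FPKM in sham, 2291 in WI and 8613 in IR, a fall to 0.448 times the sham value and then a rise of 3.76-fold. Serpina3k, the most abundant copy, had the same course with 4581 FPKM in sham, 1881 in WI and 7116 in IR, which was 89.6%, 82.1% and 82.6% of the sum. Its log2 difference was -1.28 in WI against sham and 1.92 in IR against WI, but its bounds reached 0 in sham and IR and overlapped in both comparisons. Without Serpina3k the sum was 531, 410 and 1498 FPKM.

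Serpina3n was at 203 FPKM (bounds 86.1 to 320) in sham, 171 (75.5 to 266) in WI and 1056 (199 to 1913) in IR. The sham and WI values were close, and IR was 6.18 times WI and 5.20 times sham (log2 differences 2.62 and 2.37), with bounds that overlapped. Serpina3f was at 4.52, 4.27 and 11.7 FPKM, and its neighbour Serpina3g, a cysteine protease inhibitor also named Spi2A, at 11.96, 11.5 and 21.1. Serpina3f rose in IR against both others (log2 differences 1.26 and 1.20, and 0.83 and 0.73 after rescaling to TPM), and Serpina3g passed 2-fold in none. The 2 genes share a locus in the files, so fragments may be divided between them. Serpina3m was at 310, 223 and 406 FPKM and passed 2-fold in none. Serpina3c was at 0.106 FPKM in sham, 0.0657 in WI and 1.44 in IR, where its bounds (0.525 to 2.35) lay apart from those of the other libraries. It reached the minimum in IR only and so had to be higher there.

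**Figure D3:**
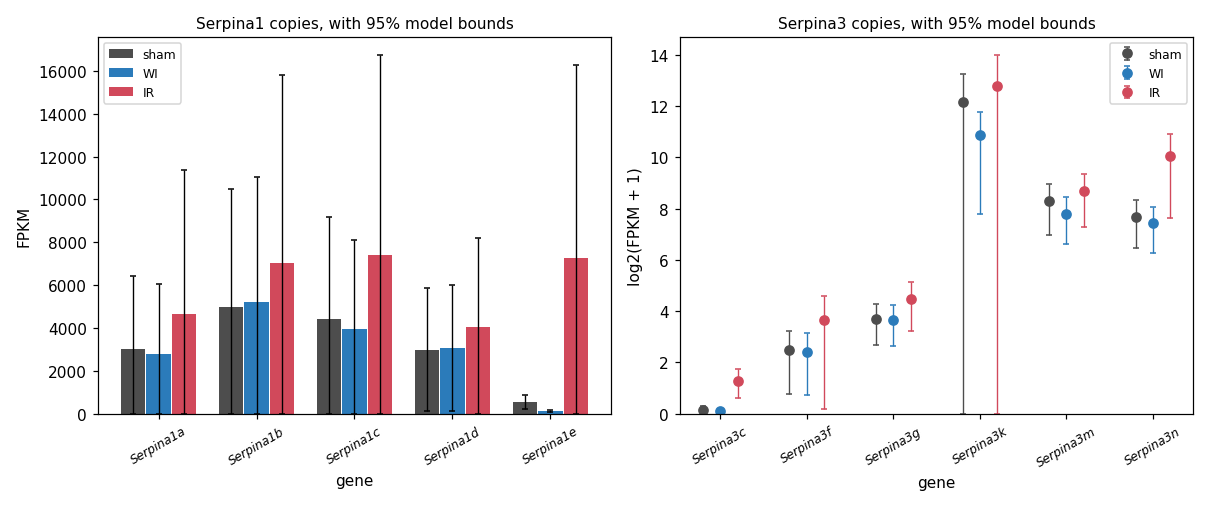
Left, FPKM of the 5 expressed Serpina1 copies, and right, log2(FPKM + 1) of the 6 compared Serpina3 copies, in the sham, WI and IR libraries with the 95% bounds of the Cuffdiff model. The Serpina1e bar is at 7242 FPKM in IR and 124 in WI, and the bounds of most Serpina1 copies reach 0.

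Other clade A genes differed in their course. Serpina6 encodes corticosteroid-binding globulin, a carrier of glucocorticoids with no protease target. It was at 236 FPKM (bounds 106 to 366) in sham, 491 (187 to 795) in WI and 218 (99.6 to 337) in IR. It was the one serpin that rose in WI (log2 difference 1.06) and the one that fell in IR against WI (-1.17), sham and IR were close together, and the bounds overlapped throughout. Serpina7, the thyroxine-binding globulin, was at 9.64, 14.6 and 9.55 FPKM, the same course at a smaller size, and it passed 2-fold in IR against WI only after rescaling to TPM (log2 difference -1.10). Both genes are hormone carriers.

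Serpina10 encodes the protein Z-dependent inhibitor of clotting factor X. It was at 87.0 FPKM (bounds 44.0 to 130) in sham, 137 (65.8 to 207) in WI and 265 (114 to 415) in IR, with higher values at each step and a rise in IR against sham (log2 difference 1.59, 1.02 after rescaling to TPM). Serpina12, known as vaspin, was at 2.48 FPKM (1.19 to 3.78) in sham, 1.46 (0.628 to 2.29) in WI and 9.28 (4.98 to 13.6) in IR, and the IR bounds lay above those of both other libraries. Its log2 difference was 2.06 in IR against WI and 1.56 in IR against sham. Serpina11 was at 33.7, 29.2 and 52.3 FPKM and passed 2-fold in none.

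Serpina4-ps1, a pseudogene of the kallistatin gene, was at 7.04 FPKM (bounds 3.36 to 10.7) in sham, 0.0753 (0 to 0.170) in WI and 9.08 (4.50 to 13.7) in IR. The WI bounds lay below those of both other libraries, with log2 differences of -2.90 in WI against sham and 3.23 in IR against WI, and IR and sham differed by 0.33 with overlapping bounds. Serpina4-ps1 and Serpina1e were the 2 serpins whose fall in WI had bounds apart. Both lie in the serpin cluster of chromosome 12, where 24 serpin rows, 16 of them compared, span 798 kb (103616675 to 104414334). The compared genes nearest to Serpina1e on either side, Serpina1c and Serpina11, did not pass 2-fold, and those on either side of Serpina4-ps1 were Serpina12 and Serpina3c, which did so in IR only.

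**Figure D4:**
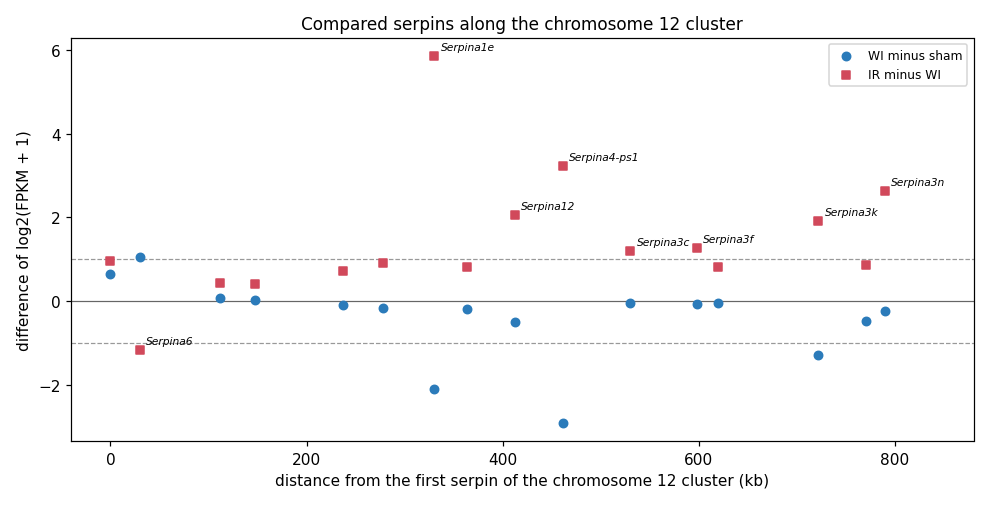
Difference of log2(FPKM + 1) of the 16 compared serpins against distance in kb from the first serpin of the chromosome 12 cluster, for WI minus sham (circles) and IR minus WI (squares), with dashed lines at 2-fold and names for genes past 2-fold in IR against WI. Serpina6 is the only square below 0, and circles past 2-fold are those of Serpina6, Serpina1e, Serpina4-ps1 and Serpina3k.

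Serpine2, or protease nexin-1, an inhibitor of thrombin and urokinase on cell surfaces, was at 0.717 FPKM (bounds 0.211 to 1.22) in sham, 0.565 (0.151 to 0.979) in WI and 3.04 (1.33 to 4.75) in IR. The IR bounds lay above both others, with log2 differences of 1.37 in IR against WI and 1.24 in IR against sham. It reached the minimum in IR only and so had to be higher there. Serpine2 is expressed by several cell types and is no marker in the cell type lists used here.

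Unlike Serpina10, 5 other abundant plasma serpins did not pass 2-fold in any comparison. Serpinc1, antithrombin, was at 788 FPKM in sham, 887 in WI and 1013 in IR, and Serping1, the C1 inhibitor, at 364, 394 and 417. Serpind1, heparin cofactor II, was at 210, 260 and 195 FPKM, and shares a locus in the files with Pi4ka and Snap29. Serpinf2, alpha-2-antiplasmin, the main inhibitor of plasmin, was at 246, 324 and 457 FPKM, and Serpinf1, the secreted protein PEDF with no known protease target, at 244, 269 and 366. The bounds of all 5 genes overlapped. The IR values of Serpinc1, Serping1, Serpinf1 and Serpinf2 were above WI in FPKM and below it after rescaling to TPM, by 0.35, 0.47, 0.10 and 0.05 on the log2 scale. A direction for them in IR therefore depends on the scale.

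**Figure D5:**
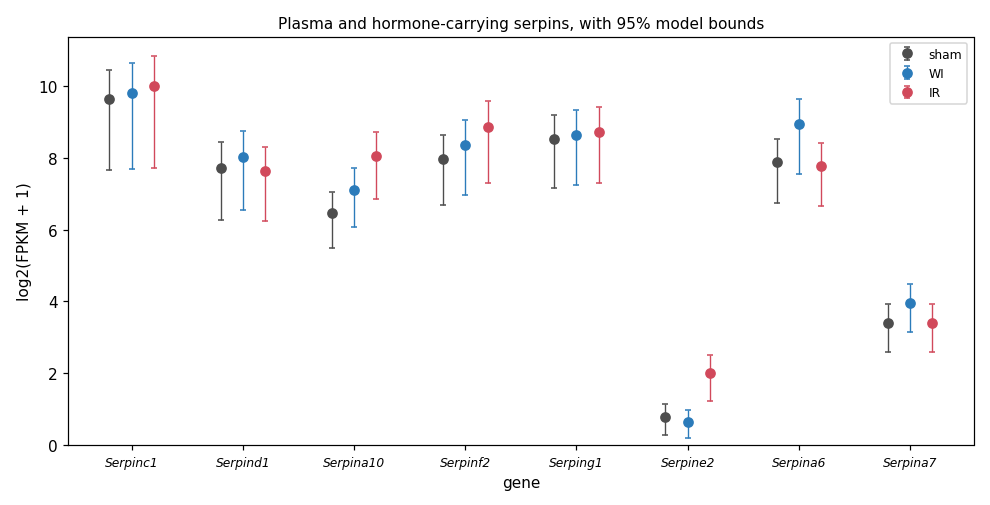
Log2(FPKM + 1) with the 95% bounds of the Cuffdiff model for serpins of clotting and complement, Serpinf2 and Serpine2, and for the hormone carriers Serpina6 and Serpina7, in the sham, WI and IR libraries (1 each). The IR bounds lie above the others for Serpine2 and overlap them for the other 7 genes.

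Clade B serpins act inside cells and were low. Only 5 of 27 were compared, and 16 of 27 were at 0 in all libraries. Serpinb6a, an inhibitor of cathepsin G, was at 18.5, 12.6 and 14.4 FPKM, with a lower bound of 0 in every library and a locus shared with Nqo2 and 1110046J04Rik. Serpinb9, an inhibitor of granzyme B, was at 3.12, 5.07 and 3.76 FPKM. Serpinb1a, an inhibitor of neutrophil proteases that neutrophils express, was at 1.24 FPKM in sham, 1.77 in WI and 3.30 in IR, a log2 difference of 0.94 in IR against sham that passed 2-fold with a pseudocount of 0.1 (1.34). The neutrophil markers S100a8 (13.6, 9.17 and 212 FPKM) and S100a9 (8.86, 8.07 and 204) were also highest in IR but lower in WI than in sham, where Serpinb1a was higher, and their part in its value was not tested. Serpinb6b was at 1.63, 0.940 and 2.38 FPKM and Serpinb8 at 0.831, 1.32 and 1.67. Serpinh1, the collagen chaperone HSP47 in the endoplasmic reticulum, was at 4.75, 5.40 and 8.30 FPKM, and it did not pass 2-fold. Of 12 heat shock chaperones, 8 rose in IR against WI (5.74% of all genes). Neither of the 2 clade I rows, among them the neuroserpin gene Serpini1, reached the minimum.

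Of 31 listed proteases that serpins inhibit, 23 were above the minimum. In IR against WI 1 rose (5.74% of all genes) and 1 fell (1.35%), with a median log2 difference of 0.03, as for all genes, and in IR against sham 1 rose (5.34%) and 1 fell (2.08%). The one that rose in both was Ctsl, the lysosomal cathepsin L, at 298 FPKM in sham, 287 in WI and 714 in IR. The one that fell against sham was Ctss, or cathepsin S, at 99.9, 58.9 and 34.4 FPKM. The one that fell against WI was Prtn3, the neutrophil protease 3, at 1.16, 3.96 and 0.675 FPKM, which was also the one past 2-fold in WI against sham, and its bounds (0 to 37.3, 0 to 77.5 and 0 to 36.3) overlapped throughout. Elane, the elastase that alpha-1-antitrypsin inhibits, was at 0.0955 FPKM in sham, 0 in WI and 0.118 in IR, and Plg, the precursor of plasmin, at 735, 748 and 814.

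Among cofactors, receptors and clients of serpins, 21 of 23 were above the minimum. In IR against WI 6 of them rose (5.74% of all genes) and 0 fell (1.35%), with a median log2 difference of 0.23. Plaur, the urokinase receptor, was at 0.441 FPKM in sham, 0.441 in WI and 10.1 in IR. Thbd, or thrombomodulin, which turns thrombin toward protein C, was at 3.58, 1.93 and 21.5 FPKM, and Procr, the protein C receptor of endothelium, at 0.947, 0.849 and 9.72. Plaur and Procr reached the minimum in IR only and so had to be higher there. Vtn, or vitronectin, an adhesive protein of plasma, was at 804, 924 and 1326 FPKM and passed 2-fold in none, nor did Agt, the precursor of angiotensin and a serpin by structure though not by symbol, at 266, 257 and 475. Of 8 sinusoidal endothelial markers, 1 rose in IR against WI (5.74% of all genes), and their sum was 149, 111 and 118 FPKM.

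There were 24 cytokines and transcription factors of the acute phase and heat shock response above the minimum. In IR against WI 11 of them rose (5.74% of all genes) and 0 fell (1.35%), with a median log2 difference of 0.70. In IR against sham 11 rose (5.34%) and 1 fell (2.08%). The one that fell was Il6ra, the IL-6 receptor, at 29.8 FPKM in sham, 14.5 in WI and 13.5 in IR. Socs3, a feedback inhibitor of STAT3 signalling, was at 3.14, 5.38 and 109 FPKM, and Stat3 itself at 19.5, 24.0 and 52.3. Il1b was at 4.24, 7.29 and 23.4 FPKM, and Cebpd at 9.64, 3.20 and 32.8. Il6 stayed below the minimum, at 0, 0.0373 and 0.152 FPKM.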

How the data were processed

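Each deposited table holds, for 1 library, the FPKM of every gene with its 95% bounds and a status. The authors mapped RNA-seq reads to mm10 with TopHat2 2.0.9 and computed the deposited FPKM with Cufflinks 2.0.2 (Cuffdiff, default parameters), which divides reads that fit several genes among them. No gene counts were used, so the depth behind a gene is unknown and no counting interval is given. For the 30 compared serpins the upper bound lay a median of 61.9% above the FPKM in sham, 62.0% in WI and 60.8% in IR. The members, gene lists and naming rule were chosen with earlier results of these data known.

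Values with status OK were put on the scale log2(FPKM + 1), which understates differences of low genes, and 10771 genes with at least 1 FPKM in at least 1 library passed the filter. With 1 library a condition a call is a fold of at least 2; the code for these calls was tested on simulated data with no noise, which says nothing of error rates. Genes named were those past 2-fold in any comparison, those at 20 FPKM or above, and Serpinc1, Serpind1, Serpinf1, Serpinf2, Serping1, Serpinh1, Serpina6, Serpina7, Serpina10 and Serpina12; the other compared serpins, and single genes of the lists, were named after their values were seen. Coding sequences and runs of bases came from GENCODE vM1 (NCBIM37) by gene name, and promoters and coordinates from RefSeq (GRCm38.p6, the assembly of mm10). Identities leave out gaps. Protein sequences were not used here, and 1 compared serpin, which is included in the counts, is not reported by name here. Python 3.11.15, numpy 2.4.6, pandas 2.3.3, biopython 1.88 and matplotlib 3.10.9 were used.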

Additional observations from a re-analysis of the deposited data

How the results depend on the processing

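With 1 library a condition, no replicate could be left out. No paired analysis was possible because each condition was 1 library. Against 4, 10 and 8 serpins past 2-fold in WI against sham, IR against WI and IR against sham, where 1.83%, 7.08% and 7.42% of all genes were past it, a fold of 4 left 2, 5 and 3 (0.214%, 1.69% and 1.46%), and a fold of 1.5 gave 5, 18 and 16 (7.38%, 19.7% and 23.7%). Asking also for bounds that did not overlap left 2, 5 and 4. Leaving out the 9 serpins with a lower bound of 0 in a library, chosen after seeing the data, gave 1, 6 and 6. The shares of all genes stayed at 1.83%, 7.08% and 7.42%. Summing the copies of Serpina1 and of Serpina3 gave 21 members compared and 3, 7 and 4 past 2-fold. Without a filter all 63 serpins were compared, and the 3 counts were the same, beside 0.848%, 3.28% and 3.43% of all genes. With at least 1 FPKM in all 3 libraries, 25 serpins were compared and 7 passed 2-fold in IR against WI (6.00% of all genes). Of these, 6 rose, in place of 9. Rescaling to TPM gave 4, 10 and 7, where 2.36%, 13.3% and 16.1% of all genes were past 2-fold, with 8 risen and 2 fallen in IR against WI, and moved the serpin median to 0.29 in IR against WI and 0.052 in IR against sham. It moved the log2 difference of the Serpina1 sum to 0.46 and 0.35, and that of the Serpina3 sum to 1.36 and 0.17. The share of higher serpins went from 26 to 18 of 30 in each of these comparisons, because the IR library had the highest summed FPKM. Pseudocounts of 0.1 and 0.01, the median ratio and the stricter filters left the other counts within 1.5 times, and no log2 difference past 2-fold changed sign under these or under TPM, while that of Serpina4-ps1 in IR against sham, 0.33, was -0.20 under TPM.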

Other observations

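Of 31 listed protease inhibitors of other families, 25 were above the minimum, and in IR against WI 2 rose (5.74% of all genes) and 0 fell (1.35%), with a median log2 difference of 0.23 beside 0.03 for all genes. The 2 that rose were Timp1, an inhibitor of metalloproteases, at 0.149 FPKM in sham, 0.175 in WI and 3.61 in IR, and Slpi, a secreted inhibitor of leukocyte elastase, at 2.36, 1.33 and 12.3 FPKM. Timp1 reached the minimum in IR only and so had to be higher there. The abundant Ahsg, or fetuin A, was at 6933, 6449 and 8468 FPKM, and Ambp, the precursor of bikunin, at 1389, 1628 and 2041, neither past 2-fold. Mug1, a murinoglobulin of the alpha-2-macroglobulin family, was at 567, 354 and 694 FPKM, while its relative Pzp was at 1153, 1087 and 855.

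The heat shock chaperones, the group to which Serpinh1 belongs by its name HSP47, had a median log2 difference of 2.73 in IR against WI. In IR against sham 9 of 12 rose (5.34% of all genes). Hspa1b was at 1.99 FPKM in sham, 8.36 in WI and 442 in IR, and Hspb1 at 7.77, 6.17 and 220. Of those in the endoplasmic reticulum, where Serpinh1 acts, Hsp90b1 was at 210, 272 and 211 FPKM, P4hb at 397, 538 and 566, and Hspa5 at 151, 209 and 372. Their log2 differences in IR against WI were -0.37, 0.07 and 0.83, beside 0.54 for Serpinh1.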
